A study of Mus musculus with 11 samples.

Results

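The hypothalamus of adult mice was profiled by RNA-seq, and 10 of the 14864 genes in the deposited table are described here. They are 8 genes of meningeal fibroblasts (Dcn, Lum, Col1a1, Col1a2, Col3a1, Igf2, Slc6a13 and Aldh1a2) and 2 genes of secreted proteins, Clec3b and Emilin2. The 10 genes were chosen by name with the genotype differences and the library levels of this same table already known, so their differences between Het and WT are descriptions, carry no test, and support nothing. All 10 had a mean of at least 1 CPM (counts scaled to library size) over the 11 libraries, as did 13184 genes of the table, and only such genes entered a test. The Het group held 6 libraries, 3 from females and 3 from males, labelled heterozygous at Myt1l, a zinc finger transcription factor gene of neurons. The WT group held 5 libraries, 2 from females and 3 from males. All mice were 60 to 70 postnatal days old. The labels give neither the mutant allele nor the strain, and they do not state that each library is a separate animal, so p-values measure the spread between these libraries. Libraries are named by their labelled genotype and replicate number, as in Het 8.

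Meningeal fibroblasts form the connective tissue of the membranes around the brain and of the sheaths of its larger vessels, and in whole tissue they are a minor source of RNA. They lay down fibrillar collagen and the small leucine-rich proteoglycans that coat it, they make growth factors and retinoic acid, and they carry transporters that move solutes between blood, cerebrospinal fluid and brain. Clec3b encodes tetranectin, a secreted C-type lectin that binds plasminogen, and Emilin2 encodes a glycoprotein of elastic microfibrils.

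RefSeq upstream windows of 250 bases before a transcript start (build GRCm38.p6) were at hand for 6 of the 10 genes, in 12 windows. The 5 shown belong to 2 pairs of genes that varied together between libraries, Col1a2 with Col3a1 and Slc6a13 with Aldh1a2, and to Emilin2, which did not follow them. Where a gene had several starts, the window of the most upstream one is shown, 5′ to 3′ on the gene's strand. Capitals mark the letters TATAAA (a core promoter element), CCAAT (letters bound by NF-Y), GGGCGG (letters bound by SP1), AAGTTT (the core letters bound by MYT1 family zinc fingers) and CAGAC (letters bound by SMAD factors), searched on both strands, so their reverse complements are in capitals too.
Col1a2, chr6:4505368-4505617, plus strand: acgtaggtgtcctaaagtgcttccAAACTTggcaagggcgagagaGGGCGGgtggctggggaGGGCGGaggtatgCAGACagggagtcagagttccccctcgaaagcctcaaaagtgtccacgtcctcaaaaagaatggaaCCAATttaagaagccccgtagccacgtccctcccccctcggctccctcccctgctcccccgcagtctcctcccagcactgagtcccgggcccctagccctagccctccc
Col3a1, chr1:45311288-45311537, plus strand: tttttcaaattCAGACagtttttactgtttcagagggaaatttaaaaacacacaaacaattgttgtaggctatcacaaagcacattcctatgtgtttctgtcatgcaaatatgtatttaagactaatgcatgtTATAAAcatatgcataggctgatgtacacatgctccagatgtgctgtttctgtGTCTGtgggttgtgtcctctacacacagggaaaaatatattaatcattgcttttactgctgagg
Slc6a13, chr6:121300038-121300287, plus strand: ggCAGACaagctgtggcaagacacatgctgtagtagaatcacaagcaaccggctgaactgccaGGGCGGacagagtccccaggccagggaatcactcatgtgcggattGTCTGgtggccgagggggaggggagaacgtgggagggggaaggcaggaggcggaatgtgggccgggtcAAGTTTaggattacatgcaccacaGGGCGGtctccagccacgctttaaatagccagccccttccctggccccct
Aldh1a2, chr9:71215539-71215788, plus strand: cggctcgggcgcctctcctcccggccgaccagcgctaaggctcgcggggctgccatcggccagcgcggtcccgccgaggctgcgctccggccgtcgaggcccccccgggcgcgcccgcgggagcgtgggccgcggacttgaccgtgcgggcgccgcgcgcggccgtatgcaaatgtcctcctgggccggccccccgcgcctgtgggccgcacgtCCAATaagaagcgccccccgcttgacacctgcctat
Emilin2, chr17:71311557-71311806, minus strand: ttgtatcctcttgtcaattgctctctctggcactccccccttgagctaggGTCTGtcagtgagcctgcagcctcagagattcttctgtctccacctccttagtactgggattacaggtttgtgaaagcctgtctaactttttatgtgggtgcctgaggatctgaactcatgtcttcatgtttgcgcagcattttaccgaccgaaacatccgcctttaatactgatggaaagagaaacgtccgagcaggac
The windows of genes that varied together differed in base composition. Aldh1a2 had 77.6% G and C with 40 CG pairs, and its partner Slc6a13 had 60.8% with 9 CG pairs. Col1a2 had 62% with 11 CG pairs, whereas Col3a1 had 35.2% with none and held the TATAAA found in 1 of the 12 windows. In comparison, TATAAA was found in 12.4% of all 32851 mouse windows of this length. AAGTTT was found in 2 of the 12 windows, those shown for Col1a2 and Slc6a13, and in 12.8% of all windows. CCAAT was found in 4 of the 12 (33.9% of all windows), GGGCGG in 5 (32.7%) and CAGAC in 9 (42.2%). No 2 motifs overlapped in the windows shown. Such matches describe letters only and are no evidence of binding.

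The libraries held 22921048 to 24941704 corrected counts each. The deposited values had been corrected by RUVr (removal of unwanted variation estimated from residuals), which left almost no variation along 1 direction between libraries, so test errors are too small to an unknown degree. With genotype and sex as terms, limma at a Benjamini-Hochberg adjusted p under 0.05 put 303 genes (2.3% of 13184) higher in Het and 150 (1.14%) lower. This split depended on scaling, with 233 higher and 243 lower after median centring and 362 higher and 102 lower after quantile normalization. Myt1l itself averaged 76.3 ± 26.9 CPM in Het (SD, n = 6) and 76.3 ± 15.9 CPM in WT (SD, n = 5). The library labelled Het 9 had the highest Myt1l level, 130 CPM, and the library labelled WT 11 the lowest, 51.1 CPM, the reverse of a loss, so results are also given without both. Description prefixes of unstated meaning split the libraries: prefix 14308 held 2 Het and 2 WT, all male, prefix 14309 held 4 Het and 2 WT of both sexes, and prefix 14111 held WT 4 alone.

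All 10 genes had a negative log2 difference between Het and WT. Their median was -0.37 on the log2(CPM + 0.5) scale, against -0.016 over all genes tested, of which 6983 were negative. Of the 10, Dcn, Clec3b and Emilin2 passed the test as lower in Het, none as higher, and 7 did not pass, where 1.14% of all genes passed as lower. The choice of the genes used this contrast, so nothing is read from that count. None of the 3 passed without Het 9 and WT 11, when 9 of the 10 differences were negative with a median of -0.28, nor when 1 residual degree of freedom was taken off for the correction. In whole tissue, the number of fibroblasts in a sample and the RNA per fibroblast cannot be told apart, and what set either was not tested.

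**Figure D1:**
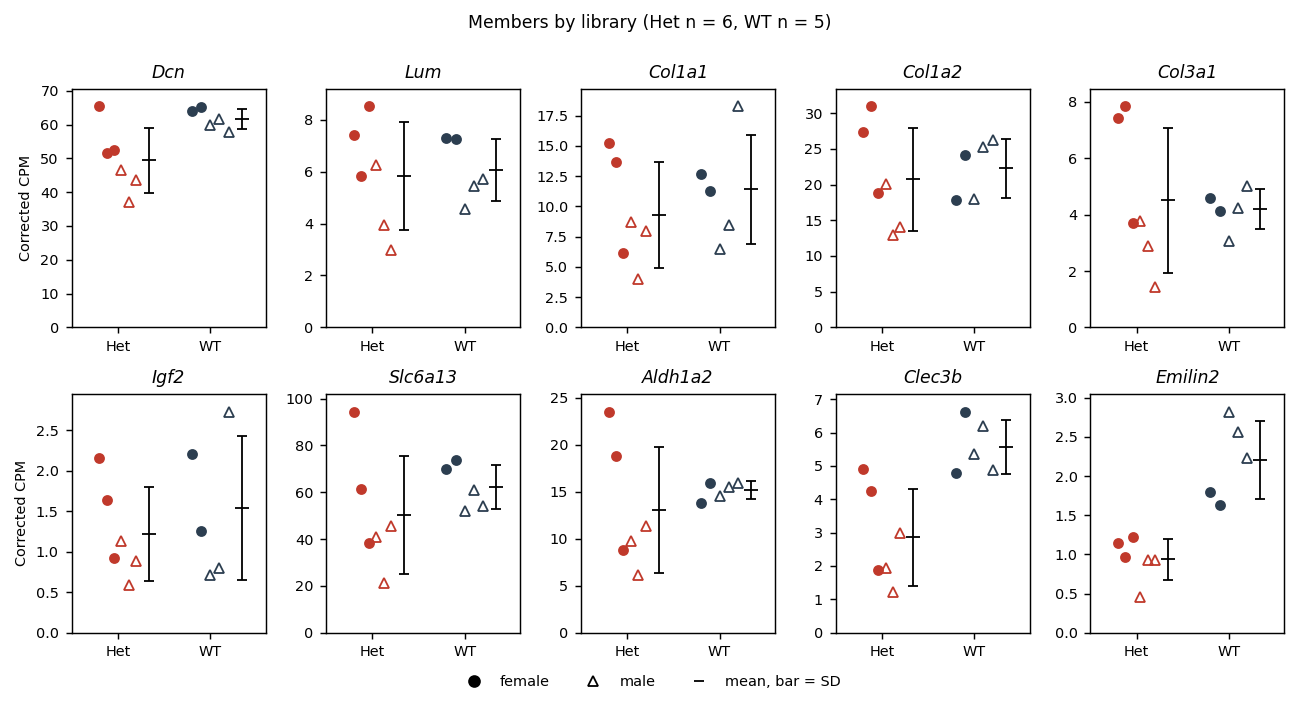
Corrected CPM (vertical axes, from 0) of the 10 genes in each library, Het left and WT right, with filled circles for females, open triangles for males and black bars for the mean ± SD (Het n = 6, WT n = 5). The Emilin2 points of the groups do not overlap, whereas for most fibroblast genes the Het points spread above and below the WT points.

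Among the matrix genes, the proteoglycan decorin, which binds collagen fibrils and growth factors of the TGF-beta family, was the steadiest in WT. Dcn (chr10:97479609-97518143, plus strand, mm10) had 37.1 CPM at the lowest, 49.2 at the median and 65.4 at the highest in Het libraries, against 64.0, 65.1, 60.01, 61.7 and 57.7 CPM in WT libraries. Of the 6 Het libraries 5 lay below the lowest WT library, and Het 2 lay above every WT library. Dcn averaged 49.5 ± 9.64 CPM in Het and 61.7 ± 2.97 CPM in WT, with a log2 difference of -0.36 (SE 0.086). Its coefficient of variation was 19.5% in Het and 4.81% in WT. Lum, which encodes lumican, a proteoglycan of the same family that regulates fibril width, starts 46984 bases beyond the end of Dcn on the same strand (chr10:97565128-97572703). Lum had 2.98, 6.04 and 8.51 CPM at the lowest, median and highest in Het, against 7.31, 7.26, 4.55, 5.45 and 5.71 CPM in WT. The groups overlapped, at 5.82 ± 2.07 CPM in Het and 6.06 ± 1.20 CPM in WT. Its log2 difference was -0.16 (SE 0.17).

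The collagen chains overlapped between genotypes. Col1a1 and Col1a2 encode the 2 chain types of type I collagen, the main fibre of connective tissue. Col1a1 (chr11:94936224-94953042, plus strand) had 4.04, 8.31 and 15.3 CPM at the lowest, median and highest in Het, against 12.6, 11.2, 6.49, 8.47 and 18.3 CPM in WT, where the highest value was that of WT 11. Col1a2 (chr6:4504814-4541544, plus strand) had 12.9, 19.5 and 31.0 CPM at the lowest, median and highest in Het, against 17.8, 24.1, 18.0, 25.2 and 26.3 CPM in WT. The log2 differences were -0.38 (SE 0.27) for Col1a1 and -0.18 (SE 0.18) for Col1a2, and for each gene 2 Het libraries lay below the lowest WT library. Col3a1 (chr1:45311538-45349706, plus strand) encodes type III collagen, which accompanies type I in soft tissue and vessel walls. Het libraries spanned 1.43 to 7.84 CPM, a 5.49-fold range, and WT libraries spanned 3.08 to 5.00 CPM, a 1.62-fold range. The direction of Col3a1 was not settled, since its mean was higher in Het (4.51 ± 2.57 CPM) than in WT (4.20 ± 0.718 CPM) while its fitted log2 difference was -0.13 (SE 0.26), and 0.18 (SE 0.23) without Het 9 and WT 11.

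Igf2, the growth factor with the lowest level per length of the 10, had 0.589, 1.03 and 2.15 CPM at the lowest, median and highest in Het, against 2.21, 1.26, 0.717, 0.797 and 2.73 CPM in WT. The groups overlapped, with 1 Het library below the lowest WT library and a log2 difference of -0.25 (SE 0.28). These values rest on 14 to 51 corrected counts in Het and 17 to 65 in WT. At chr7:142650766-142666816 (minus strand), 64.5% of the exon bases of Igf2 are also covered by Gm49394 on the same strand or Igf2os on the opposite one, so its reads are uncertain.

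Slc6a13 and Aldh1a2 combined an uneven Het group with an even WT group. Slc6a13 (chr6:121300227-121337733, plus strand) encodes the GABA and taurine transporter GAT2 of the mouse leptomeninges. Slc6a13 had 94.5, 61.4, 38.2, 41.0, 21.3 and 45.5 CPM in Het 2, 4, 7, 5, 8 and 9, against 69.8, 73.6, 52.1, 61.1 and 54.2 CPM in WT 4, 6, 3, 7 and 11. In these, 4 Het libraries lay below the lowest WT library and Het 2 above the highest, with a log2 difference of -0.49 (SE 0.20). Aldh1a2 (chr9:71215789-71296243, plus strand) encodes the retinaldehyde dehydrogenase that makes retinoic acid. Aldh1a2 had 23.5, 18.8, 8.76, 9.77, 6.10 and 11.4 CPM in the same Het libraries, against 13.8, 15.9, 14.6, 15.5 and 15.9 CPM in the WT libraries. Every WT library lay inside a gap of the Het values, below Het 2 and Het 4 and above the other 4. The coefficient of variation of Aldh1a2 was 51.2% in Het and 6.24% in WT, and that of Slc6a13 was 50.1% in Het and 15.2% in WT. The log2 difference of Aldh1a2, -0.39 (SE 0.23), therefore averages Het libraries on both sides of WT.

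Both secreted genes were at their lowest in Het. Clec3b (chr9:123150946-123157432, plus strand) had 4.90, 4.24, 1.89, 1.93, 1.22 and 2.98 CPM in Het 2, 4, 7, 5, 8 and 9, against 4.8005, 6.63, 5.36, 6.21 and 4.87 CPM in WT 4, 6, 3, 7 and 11. All Het libraries but Het 2 lay below the lowest WT library. Clec3b averaged 2.86 ± 1.45 CPM in Het and 5.57 ± 0.815 CPM in WT, with a log2 difference of -1.0003 (SE 0.24). Within prefix 14308 the difference was -1.62 (SE 0.33) and within prefix 14309 it was -0.76 (SE 0.33). Without Het 9 and WT 11 it was -1.08 (SE 0.27).

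Emilin2 (chr17:71252172-71311978, minus strand) had 1.14, 0.965, 1.22, 0.461, 0.926 and 0.924 CPM in Het 2, 4, 7, 5, 8 and 9, against 1.79, 1.64, 2.83, 2.56 and 2.23 CPM in WT 4, 6, 3, 7 and 11. Every Het library lay below every WT library, which held for 1 of the 10 genes and for 1.33% of all genes tested. Emilin2 averaged 0.939 ± 0.263 CPM in Het and 2.21 ± 0.5003 CPM in WT, with a log2 difference of -0.92 (SE 0.22). Within prefix 14308 the difference was -1.45 (SE 0.41) and within prefix 14309 it was -0.62 (SE 0.35). Its values rest on 11 to 29 corrected counts in Het and 39 to 67 in WT, the fewest of the 10 genes at the low end.

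Single libraries decided which of these differences passed. Over 11 fits that left out 1 library each, Dcn and Clec3b passed in 5 and Emilin2 in 2. None of the 3 passed without Het 8, Het 9, WT 6 or WT 7. The log2 difference itself stayed between -0.42 and -0.30 for Dcn, between -1.14 and -0.84 for Clec3b and between -1.02 and -0.78 for Emilin2 in those fits.

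Per kilobase of exon and over all libraries, Slc6a13 had the highest level (19.2 CPM per kb). Dcn followed at 9.43, Aldh1a2 at 6.19, Clec3b at 4.13, Lum at 2.42, Col1a2 at 1.72 and Col1a1 at 1.56 CPM per kb. Col3a1 at 0.445, Emilin2 at 0.275 and Igf2 at 0.239 CPM per kb were the lowest. The libraries of each gene overlapped those of the next gene in this order.

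**Figure D2:**
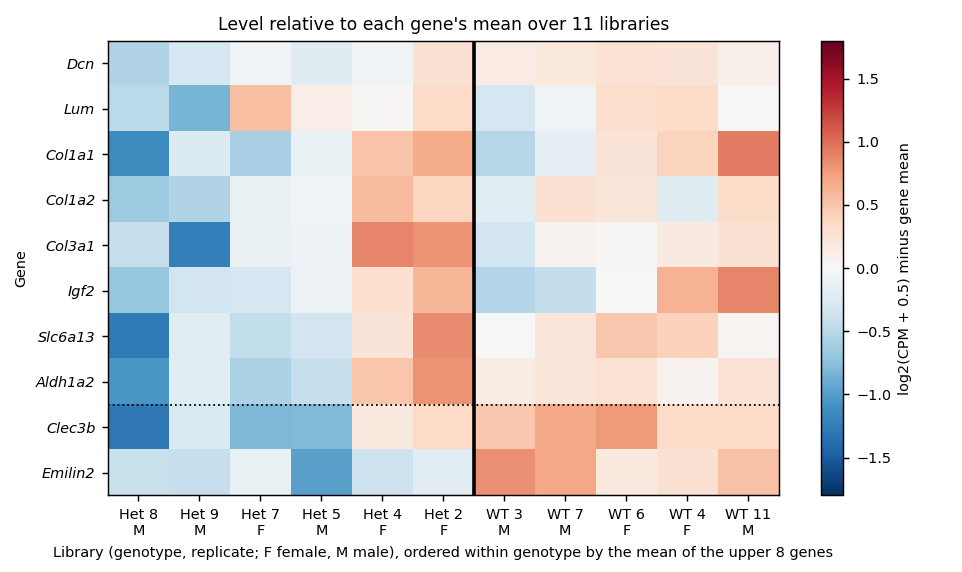
Level of each gene (rows) in each library (columns) as log2(CPM + 0.5) minus the gene's mean over the 11 libraries, red above and blue below. Het libraries stand left of the black line and WT libraries right of it, each ordered by the mean of the 8 fibroblast genes above the dotted line. Het 8 is blue for all 10 genes, and Het 2 is red for all 8 fibroblast genes.

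The 8 fibroblast genes shared their lowest libraries and, in part, their highest. Het 8, a male, was the lowest library for 6 of the 8 genes and Het 9, also male, for the other 2, and Het 8 was among the 2 lowest for all 8. Het 2, a female, was the highest for 3 of the 8 genes and among the 2 highest for 7. Het 4 and WT 11 were each the highest for 2 genes. Het 7 was the highest for Lum alone, yet among the 2 lowest for 3 of the 8 genes. Summed over the 8 genes, Het 8 had 88.9 CPM and Het 2 had 243 CPM, and the WT libraries lay between them at 160 to 203 CPM. The sum averaged 154 ± 54.5 CPM in Het (SD, n = 6) and 184 ± 15.9 CPM in WT (SD, n = 5).

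Correlations between the genes over the 11 libraries, on the log2(CPM + 0.5) scale, are descriptions of these libraries, since the genes were chosen with their levels known and share the libraries and the correction. All 45 pairs had a positive Pearson r, with a median of 0.63. The closest pair was Slc6a13 and Aldh1a2, with r = 0.94, Spearman's rho = 0.88 and r = 0.95 after each genotype and sex group was centred on its mean. Next came Col1a1 and Igf2, with r = 0.93, rho = 0.91 and r = 0.91 within groups. Dcn followed Slc6a13 at r = 0.88, and Col1a2 followed Col3a1 at r = 0.84. Among the 28 pairs of fibroblast genes r ran from 0.31 to 0.94, and within groups the median was 0.48 with 26 of 28 pairs positive. Lum was the loosest of them, with a median r of 0.49 with the other 7, and 0.18 within groups.

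**Figure D3:**
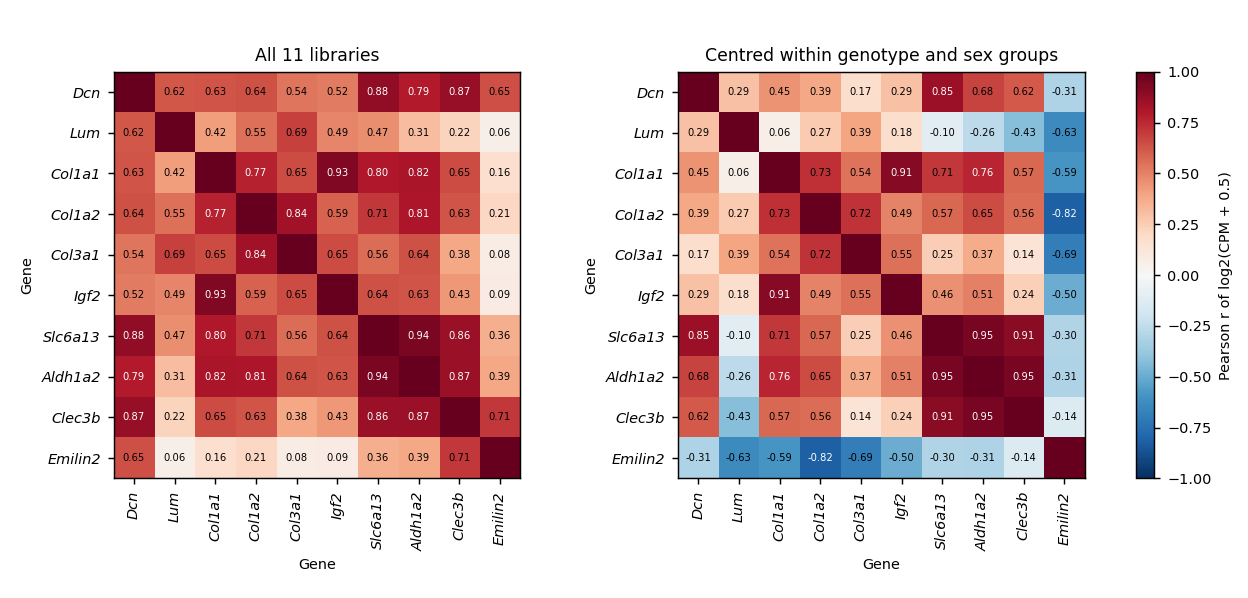
Pearson r between each pair of the 10 genes, on log2(CPM + 0.5), over all 11 libraries (left) and after centring each genotype and sex group on its mean (right). Emilin2 is positive with all 9 other genes on the left and negative with all 9 on the right, and Slc6a13, Aldh1a2 and Clec3b keep r of 0.91 to 0.95 with each other on the right.

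Some of these values rested on the lowest libraries. Without the 2 libraries farthest from the median of Dcn, Het 8 and Het 9, the r of Dcn with Lum was 0.065, against 0.62 with all 11, and that of Dcn with Col1a2 was 0.065, against 0.64. Slc6a13 with Aldh1a2 kept 0.82 without the 2 libraries farthest from the median of Slc6a13, and Col1a1 with Igf2 kept 0.90 by the same rule. Without Het 9 and WT 11 those pairs had r of 0.95 and 0.91.

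Clec3b varied with the transporter and the retinoic acid enzyme. Its r was 0.87 with Aldh1a2 (rho = 0.74), 0.86 with Slc6a13 (rho = 0.75) and 0.87 with Dcn (rho = 0.81). Within groups r was 0.95 with Aldh1a2, 0.91 with Slc6a13 and 0.62 with Dcn. With Lum it was 0.22 over all libraries and -0.43 within groups. Without the 2 libraries farthest from the median of Aldh1a2, the r of Clec3b with Aldh1a2 was 0.66. Emilin2 did not share this pattern. Its median r with the 8 fibroblast genes was 0.19 over all libraries and -0.55 within groups, where all 8 were negative. The r of Emilin2 with Clec3b was 0.71 over all libraries and -0.14 within groups, so that the positive value lay between the genotype and sex groups. With Col1a2 it was 0.21 over all libraries and -0.82 within groups. Over the 6 Het libraries alone, the median r of Emilin2 with the 8 fibroblast genes was 0.19, and its r with Col1a2 was 0.12. The centred groups held 2 or 3 libraries each, so the negative values do not show an inverse relation.

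Taken relative to Aldh1a2, Clec3b varied much less among the Het libraries than it did alone. The ratio of their CPM was 0.208, 0.225, 0.215, 0.197, 0.200 and 0.262 in Het 2, 4, 7, 5, 8 and 9, against 0.348, 0.416, 0.367, 0.400 and 0.306 in WT 4, 6, 3, 7 and 11. It averaged 0.218 ± 0.0238 in Het and 0.367 ± 0.0434 in WT, with a coefficient of variation of 10.9% in Het and 11.8% in WT. Clec3b alone had 50.9% in Het and 14.6% in WT, so dividing by Aldh1a2 changed little in WT. The groups did not overlap, although Het 2 and Het 4 had more Aldh1a2 than any WT library. Of 13183 genes set against Aldh1a2 in this way, 1 (0.00759%), Clec3b, had every Het ratio below every WT ratio. Clec3b had been chosen with its low Het values known, so this share does not measure how rare such a separation is. Aldh1a2 was picked as the denominator after the values were seen, and of the 8 fibroblast genes it was the 1 that separated Clec3b without overlap. Relative to Slc6a13, Clec3b was at 0.0470 to 0.0690 in Het and at 0.0688 to 0.103 in WT, with 5 Het libraries below the lowest WT library.

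Emilin2 was separated by 1 of the same 8 denominators. Its ratio to Dcn was 0.00988 to 0.0250 in Het and 0.0252 to 0.0471 in WT, so the groups did not overlap but almost touched. Of 13183 genes set against Dcn, 2 (0.0152%) had every Het ratio below every WT ratio. Dcn, itself lower in 5 Het libraries than in any WT library, was picked after the values were seen. Emilin2 had also been chosen with its values known, so this share does not measure rarity either. Relative to Aldh1a2, Emilin2 was at 0.0472 to 0.152 in Het and 0.103 to 0.194 in WT. When the mean of the fibroblast genes was added to the fit as a covariate, a choice made after seeing the data, the log2 difference between Het and WT was -0.72 (SE 0.23) for Clec3b and -0.92 (SE 0.25) for Emilin2. The differences of the fibroblast genes in that fit, each with the mean of the other 7, ran from -0.28 (SE 0.082) for Dcn to 0.21 (SE 0.25) for Col3a1. None of the 10 genes passed the adjusted threshold in that fit.

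**Figure D4:**
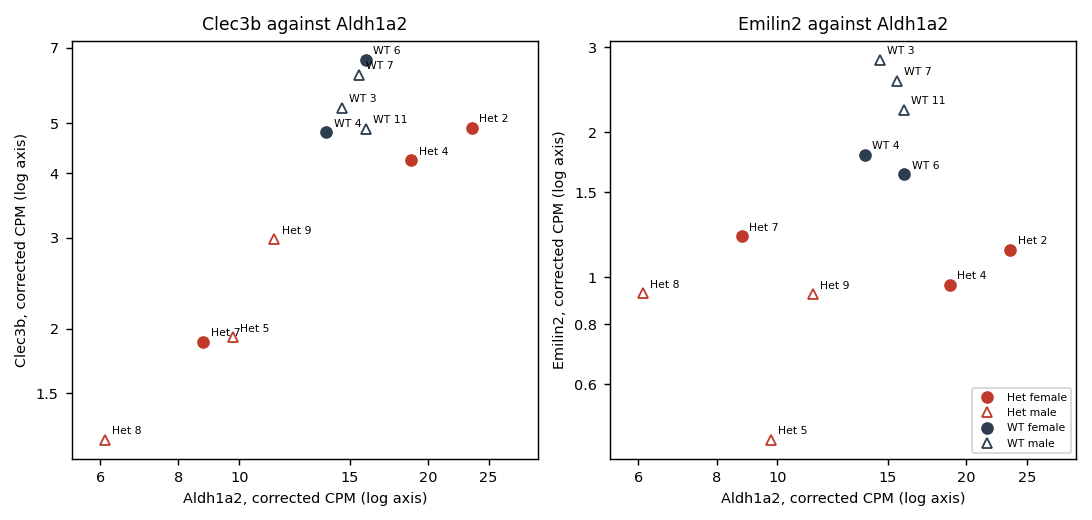
Clec3b (left) and Emilin2 (right) against Aldh1a2 in each library, in corrected CPM on log axes, with Het in red and WT in dark blue, filled circles for females and open triangles for males. On the left the 6 Het libraries have less Clec3b relative to Aldh1a2 than the 5 WT libraries, although Het 2 has more Clec3b than WT 4 and WT 11. On the right the Het points lie at 0.461 to 1.22 CPM of Emilin2 wherever they fall on the Aldh1a2 axis.

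The rule that chose the genes names the genotype groups and not sex. The library levels were known at that choice, however, and the lowest libraries (Het 8 and Het 9) are male and the highest (Het 2) female, so the p-values for sex are not free of it. Fitted with genotype, 9 of the 10 log2 differences (male minus female) were negative, with a median of -0.45 against -0.0067 over all genes, and none of the 10 passed limma's adjusted threshold, which 26 of 13184 genes (0.197%) did. At an unadjusted p under 0.05 there were 4 of the 10 genes and 1609 of all genes (12.2%). Lum had the smallest p. It averaged 4.39 CPM in males and 7.25 CPM in females of the Het group, and 5.24 CPM in males and 7.28 CPM in females of the WT group, and male minus female was -0.59 (SE 0.17; limma adjusted p = 0.189). Dcn had a difference of -0.28 (SE 0.086; limma adjusted p = 0.221), Slc6a13 of -0.61 (SE 0.20; limma adjusted p = 0.245) and Col3a1 of -0.66 (SE 0.26; limma adjusted p = 0.319). Clec3b had -0.40 (SE 0.24; limma adjusted p = 0.521), and Emilin2, the exception in sign, had 0.0005 (SE 0.22; limma adjusted p = 0.999).

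Sex and description prefix were partly the same split, since prefix 14308 held males alone. Within prefix 14309, 7 of the 10 differences were negative with a median of -0.28. Lum there had -0.81 (SE 0.26), Col3a1 -0.95 (SE 0.42) and Slc6a13 -0.42 (SE 0.25), while Col1a1 had 0.0087 (SE 0.33) and Igf2 0.028 (SE 0.41). Without Het 9 and WT 11, all 10 were negative with a median of -0.51, and none passed.

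Whether the genotype difference was the same in both sexes was tested with an interaction term, and 0 of 13184 genes (0.0%) passed limma's adjusted threshold, with 613 at an unadjusted p under 0.05. All 10 members had a negative interaction, meaning a Het minus WT difference that was lower in males than in females. It ran from -1.01 (SE 0.48) for Col3a1 to -0.23 (SE 0.59) for Igf2, with limma adjusted p of 0.982 to 0.986. Of all 13184 genes, 7174 were negative, with a median of -0.024. The 10 genes varied together and their library levels were known at their choice, so nothing is read from that count. Of the 10, Col1a2 alone had an unadjusted p under 0.05, with an interaction of -0.83 (SE 0.31). Col1a2 averaged 15.7 CPM in Het males and 23.1 CPM in WT males, and 25.7 CPM in Het females and 20.9 CPM in WT females. Aldh1a2 averaged 9.08 CPM in Het males and 15.3 CPM in WT males, and 17.0 CPM in Het females and 14.9 CPM in WT females. In males, every Het library lay below every WT library for Dcn, Slc6a13, Aldh1a2, Clec3b and Emilin2, and for 10.4% of all genes tested. In females, where 3 Het libraries stood against 2 WT libraries, this was so for Emilin2 alone, at 0.965 to 1.22 CPM in Het and 1.64 to 1.79 CPM in WT, and for 15.6% of all genes tested. The difference between the sexes was not called, so these values do not show that the genotypes differ more in males.

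Other genes of the same cells and pathways gave the background to these values. Of 40 other genes of meningeal fibroblasts, 31 were tested, and 0 passed limma's adjusted threshold between Het and WT, with 12 at an unadjusted p under 0.05, a level that 2938 of the 13184 genes tested (22.3%) reached. Of the 31, 28 were negative, with a median log2 difference of -0.37 against -0.016 over all genes, and without Het 9 and WT 11 28 were negative with a median of -0.28. Their 3 smallest p-values belonged to Ogn, the proteoglycan osteoglycin, at 23.9 ± 10.9 CPM in Het and 31.6 ± 2.65 CPM in WT, to Wnt6, a secreted Wnt ligand, at 2.24 ± 1.503 CPM in Het and 3.84 ± 1.22 CPM in WT, and to Igfbp2, which binds insulin-like growth factors, at 9.65 ± 2.90 CPM in Het and 13.6 ± 2.07 CPM in WT. The summed level of this list was lowest in Het 8 and highest in Het 2, as for the 8 members, at 2941 to 9303 CPM in Het and 6446 to 8198 CPM in WT. Most of that sum was Ptgds, at 2437 to 8335 CPM in Het and 5661 to 7348 CPM in WT, so its order mainly reflects 1 gene. Between males and females 29 of the 31 genes tested in this list were negative with a median of -0.36, and 0 passed. At an unadjusted p under 0.05 there were 11 of them, against 12.2% of all genes.

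The relatives of the matrix members were also mostly negative. All 8 of the other small leucine-rich proteoglycans tested were negative with a median of -0.28, led by Ogn and by Omd, osteomodulin, at 2.66 ± 1.71 CPM in Het and 4.20 ± 0.991 CPM in WT. Of 29 other collagen and matrix genes tested, 22 were negative with a median of -0.14, and 17 were negative without Het 9 and WT 11. Pcolce, which enhances the processing of procollagen, averaged 28.0 ± 9.79 CPM in Het and 37.3 ± 2.06 CPM in WT, and Fbln5, an elastic fibre protein, 10.8 ± 1.39 CPM in Het and 14.2 ± 2.28 CPM in WT. Neither list had a gene past limma's adjusted threshold, with 2 proteoglycan genes and 3 collagen and matrix genes at an unadjusted p under 0.05, against 22.3% of all genes. For the 8 proteoglycans that count is near the share of all genes, and for the 29 collagen and matrix genes it is below it.

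The pathway partners of the other members had medians on both sides of 0. In the retinoic acid system, 9 of 16 genes tested were negative with a median of -0.034. Crabp2, a retinoic acid binding protein, averaged 10.3 ± 5.36 CPM in Het and 13.4 ± 1.78 CPM in WT, and Rxra, a retinoid receptor, averaged 12.5 ± 1.804 CPM in Het and 9.68 ± 0.816 CPM in WT. In the insulin-like growth factor system, 4 of 11 were negative with a median of 0.063. Of the 5 other GABA, betaine and related transporters, 1 was negative, with a median of 0.21, and Slc6a11, the GABA transporter GAT3 of astrocytes, averaged 135 ± 13.5 CPM in Het and 117 ± 11.6 CPM in WT. All 8 genes tested of the tetranectin and plasminogen system were negative with a median of -0.21, including S100a10, a plasminogen receptor subunit, at 67.9 ± 8.87 CPM in Het and 80.9 ± 9.13 CPM in WT. Of the EMILIN and multimerin family only Mmrn2 was tested, with a difference of 0.23 (SE 0.26). None of these lists had a gene past limma's adjusted threshold, with 2, 1, 1, 4 and 0 genes at an unadjusted p under 0.05 in the order given, against 22.3% of all genes.

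**Figure D5:**
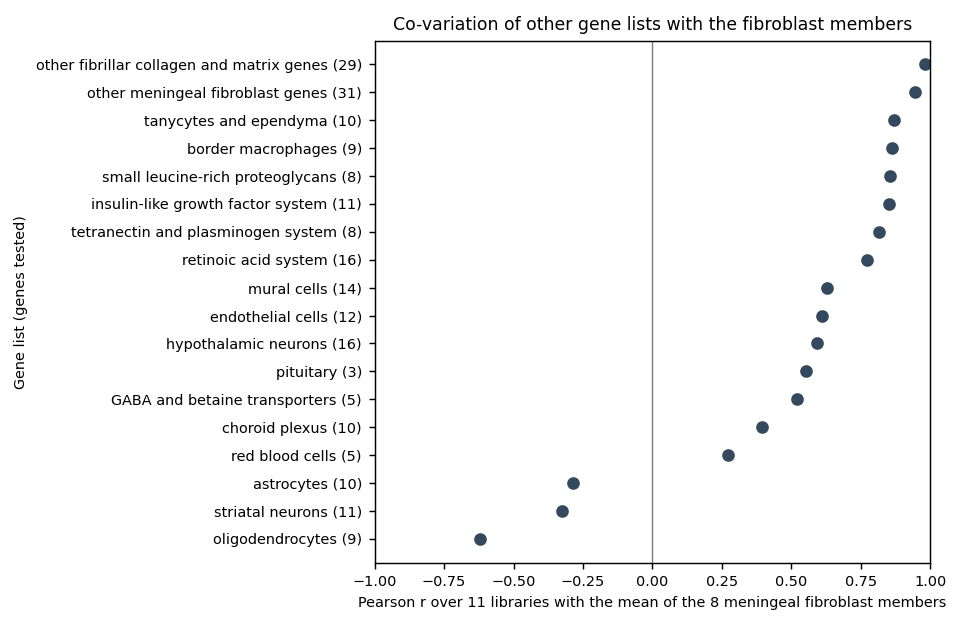
Pearson r over the 11 libraries between the mean log2(CPM + 0.5) of each gene list (number of genes tested in brackets) and the mean of the 8 meningeal fibroblast genes. Other matrix genes (0.98) and other meningeal fibroblast genes (0.94) lie at the right end and oligodendrocyte genes (-0.62) at the left.

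The mean of the 8 fibroblast genes varied between libraries with the means of several other lists. Its r was 0.98 with the mean of the other collagen and matrix genes and 0.94 with that of the other meningeal fibroblast genes. Single collagen and matrix genes ran from -0.57 (Plod1) to 0.91 (Fn1). Most of their summed CPM was Sparc (r = 0.033), and that sum was lowest in Het 9 and highest in WT 3, unlike the sum of the 8 members. Single genes of the other meningeal fibroblast list ran from -0.57 (Il33) to 0.97 (Gjb2). Border macrophages, immune cells that live in the meninges and around vessels, had r = 0.86, with 9 of 10 markers tested and summed levels of 14.4 to 29.2 CPM in Het and 21.3 to 31.2 CPM in WT. Tanycytes and ependyma, the lining of the third ventricle, had r = 0.87, with 10 of 12 markers tested and sums of 221 to 283 CPM in Het and 242 to 265 CPM in WT. This r belongs to the list mean, and single markers ran from -0.55 (Crym, the largest part of the sum) to 0.87 (Vim). Between them lay Foxj1 at 0.0033 and Ccdc153 at 0.24. Mural cells had r = 0.63, with 14 of 15 markers tested and sums of 224 to 384 CPM in Het and 288 to 332 CPM in WT. Single markers ran from -0.23 (Rgs5) to 0.93 (Vtn, the largest part of the sum), with Pdgfrb at 0.092. Endothelial cells had r = 0.61, with 12 of 12 tested and sums of 234 to 278 CPM in Het and 255 to 321 CPM in WT. Choroid plexus had r = 0.39, with 10 of 15 tested and sums of 254 to 326 CPM in Het and 277 to 332 CPM in WT. Most of that sum was Enpp2 (r = -0.28), at 198 to 285 CPM in Het and 233 to 282 CPM in WT. Ttr in the same list was far less even, at 1.09 to 12.5 CPM in Het and 1.51 to 29.9 CPM in WT. Red blood cells had r = 0.27, with 5 of 5 tested, all 5 negative, and sums of 313 to 921 CPM in Het and 497 to 2080 CPM in WT. Oligodendrocytes had r = -0.62, with sums of 9500 to 13955 CPM in Het and 10151 to 11806 CPM in WT. The part of these cell types in the differences of the 10 genes was not tested. None of the genes of the macrophage, ependymal, mural, endothelial, choroid plexus, red blood cell or oligodendrocyte lists passed limma's adjusted threshold between Het and WT, with 1, 3, 2, 2, 2, 1 and 0 at an unadjusted p under 0.05, against 22.3% of all genes.

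The single genes most like the fibroblast mean were Gjb2 (r = 0.97), Bmp7 (0.96), Cdk4 (0.96), Aebp1 (0.96), Islr (0.93), Letm1 (0.93), Sphk1 (0.93), H2-K1 (0.93), Vtn (0.93) and Slc22a8 (0.92), by Pearson r over the 11 libraries among 12836 genes. Of those genes 129 (1.0%) had r of at least 0.8, and 60 had r of -0.8 or below. Gjb2, which encodes a connexin of gap junctions, averaged 26.9 ± 13.3 CPM in Het and 32.6 ± 8.14 CPM in WT. Bmp7, a secreted bone morphogenetic protein, averaged 6.92 ± 2.11 CPM in Het and 7.84 ± 1.17 CPM in WT. Gjb2, Bmp7, Islr and Slc22a8 also stood in the list of other meningeal fibroblast genes, and Vtn in that of mural cells.

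The 5 genes most like Clec3b were Tmem160 (r = 0.97), Pcolce (0.95), Rprm (0.92), Hist1h4c (0.92) and Bex4 (0.91). Pcolce, secreted like Clec3b, was in the list of matrix genes, while Tmem160 averaged 4.26 ± 0.842 CPM in Het and 5.79 ± 0.536 CPM in WT. The 5 most like Emilin2 were Sf3a3 (r = 0.96), Creb3 (0.94), Cela1 (0.93), B9d2 (0.92) and Mrto4 (0.91), none of which stood in a list. Sf3a3, a splicing factor subunit, averaged 54.1 ± 2.82 CPM in Het and 62.8 ± 1.68 CPM in WT. No gene was shared between the 3 sets of most similar genes.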

How the data were processed

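The deposited table gave 1 column for each of the 11 libraries. Per the labels' protocols, a Zymo kit was used for extraction and the SMARTer Ultra Low kit for the libraries. The submitters' processing notes name Trimmomatic, Bowtie2, STAR, HTSeq and mm10, and the strand setting of the counting was not given in the sources used here. The deposited values are log2 CPM plus a constant, which the authors corrected by RUVr, per the name of the table. Each column had the same lowest value, -3.574, and the same upper quartile, 5.473. CPM were recovered by back-transforming and subtracting the floor, and 100% of the values were whole multiples of 1 step per library (tolerance 0.02), which gave the corrected counts. Raw depth is unknown, and such counts cover counting error only.

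Genes with a mean of at least 1 CPM (13184, leaving out 1680) were tested on log2(CPM + 0.5), a scale that understates the change of low genes. The planned test assumed CPM and was kept after the back-transform. Models used limma 3.58.1 in R 4.3.3 with a trend, terms for genotype and sex, two-sided p-values and Benjamini-Hochberg adjustment over all genes. Over 13039 genes with at least 10 corrected counts in every library, the centred data had singular values of 20.94 to 34.96 in 9 directions and 0.4433 in the next, so 1 residual degree of freedom was also taken off as an alternative. Other alternatives were pseudocounts, filters, scalings, left-out libraries, blocks and single prefixes or sexes. Gene positions came from GENCODE M21 (14856 of 14864 identifiers found). Members and gene lists were chosen with earlier results of these data known. Named genes are the 10 members, up to 3 genes of each list with the smallest p between Het and WT, and the genes most correlated with the fibroblast mean (10), Clec3b (5) and Emilin2 (5).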

Additional observations from a re-analysis of the deposited data

How the results depend on the processing

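The number of genes called between Het and WT, 453 in the reported fit, depended on the processing, whereas the 10 genes described kept most of their direction. It was 200 with no sex term, 170 with eBayes without a trend, 189 with 1 residual degree of freedom taken off, 229 without Het 9 and WT 11, and 140 (without WT 6) to 820 (without WT 3) in fits that left out 1 library. It was 300 with the prefix as a block, 6 within prefix 14308 and 16 within prefix 14309. By limma it was 1 in males alone and 0 in females alone, where 1981 genes had an unadjusted p under 0.05. With the fibroblast mean as a covariate, added after seeing the data, it was 289. The replicate block gave 46 genes. Only numbers 4 and 7 are shared by the groups. Number 4 belongs to prefixes 14309 and 14111, and number 7 to a female and a male. Deviations from the group means had r of 0.13 for number 4 and -0.092 for number 7. In data corrected by RUVr, these values can neither show nor exclude a pairing. Between males and females, 26 genes were called, against 10 without a trend, 11 with 1 degree of freedom off, 17 without Het 9 and WT 11, 5 within prefix 14309 (added after seeing the data) and 10 to 62 (without WT 11) with 1 library left out. The interaction called 0 genes in all 19 alternatives run. The median r of the 45 pairs, 0.63, was 0.39 within groups and 0.77 over the Het libraries. Leaving out WT 4 or WT 6 leaves 1 WT female, assumed to vary like the other groups.

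Dcn, Slc6a13, Clec3b and Emilin2 were lower in Het in all alternatives run. Col3a1 changed sign in 5, Col1a2 in 3, Igf2 in 2, and Lum, Col1a1 and Aldh1a2 in 1 each, and the cause was not tested. Aldh1a2 was at 0.086 and Col1a2 at 0.28 in females alone. Depth limits Igf2 and Emilin2, which reach at most 65 and 67 corrected counts in a library.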

Other observations

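Lists of cells outside the meninges set the scale of other differences in the same libraries. Over all 13184 genes tested, limma's adjusted threshold called 1.14% lower in Het and 2.3% higher. The lists were chosen with earlier results of these data known, so nothing is read from their counts. Among 16 hypothalamic neuron genes, limma's adjusted threshold called 5 lower in Het and none higher, with a median log2 difference of -0.25. Without Het 9 and WT 11, 14 of the 16 were negative. Avp, which encodes vasopressin, averaged 320 ± 106 CPM in Het and 466.1 ± 87.1 CPM in WT. Hcrt, which encodes orexin, averaged 967 ± 142 CPM in Het and 1233 ± 212 CPM in WT, and Oxt, which encodes oxytocin, 296 ± 88.7 CPM in Het and 391.7 ± 98.5 CPM in WT. Among 11 striatal neuron genes, 5 were called higher in Het and none lower, with a median of 0.46, where 2.3% of all genes were called higher. Drd1, a dopamine receptor, averaged 43.3 ± 9.50 CPM in Het and 25.5 ± 5.53 CPM in WT. The means of these lists had r of 0.59 (hypothalamic) and -0.32 (striatal) with the mean of the 8 fibroblast genes over the 11 libraries.

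Of 10 astrocyte genes, Slc1a2, a glutamate transporter, was called higher in Het (207 ± 16.3 CPM in Het and 160 ± 17.2 CPM in WT) and Gjb6, a connexin, lower (279 ± 28.3 CPM in Het and 333 ± 31.5 CPM in WT). Of all genes, 2.3% were called higher and 1.14% lower. The astrocyte list had r = -0.29 with the fibroblast mean. Of 11 pituitary genes listed, 3 were tested, Cga, Pomc and Chga, and Pomc also stood in the hypothalamic neuron list. Gh, Prl, Lhb, Pitx1 and Pou1f1 were absent from the data. The 3 tested were all negative with a median of -0.27, and none passed limma's adjusted threshold. All 3 had an unadjusted p under 0.05, a level that 22.3% of all genes reached. The mean of the 3 had r = 0.55 with the fibroblast mean.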
